A study of Drosophila melanogaster with 6 samples.

Results

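The Sfp and Acp genes are named for seminal fluid protein and accessory gland peptide. They were chosen by name alone, as the genes of the deposited table whose symbol starts with Sfp or Acp followed by a digit, and 44 of 13035 genes met that rule, 17 Acp and 27 Sfp. RNA was measured by poly(A)-selected RNA-seq in whole male Drosophila melanogaster on day 6 of adult life. The 6 libraries fall into 3 labelled control and 3 labelled dERR-/- (called mutant here). All flies carried yw, hsFLP on the first chromosome and dERR[conditional] over dERR2, so the controls carried the dERR2 allele too; dERR is the gene of the estrogen-related receptor. In this design hsFLP, a recombinase behind a heat-inducible promoter, acts on the conditional allele. Mutant flies were heat-treated for 1 h on day 5 and again on day 6 AEL (after egg laying), and control flies received no heat. Loss of dERR and the heat itself therefore cannot be told apart in any comparison given here.

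Seminal fluid of the fly is made mainly by the paired accessory glands, with further proteins from the ejaculatory duct and bulb. Its proteins enter the female with sperm at mating and are known for raising egg laying, lowering the readiness to mate again and helping sperm into storage. Many are short secreted peptides, and others are protease inhibitors, lectins or large glycoproteins. The genes are typically small, expressed in adult males and often found beside each other.

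Of the 44 genes, 42 fell in mutant males and 0 rose at an adjusted p under 0.05 (limma on log2 of normalized count + 1, adjusted over all genes), and the median log2 change was -1.07. Across all genes 9.47% fell and 4.73% rose under the same call, with a median of 0.00. No gene of the 44 had a log2 change above 0, so at an unadjusted p under 0.05 the number higher was also 0. The genes that did not pass were Acp32CD and Sfp33A1. A fall of at least 2-fold that also passed the test was measured for 26 of the 44, against 2.34% of all genes. In 43 of the 44, all 3 mutant libraries lay below all 3 control libraries, which held for 16.9% of all genes. The authors' deposited table has 43 of the 44 lower at an adjusted p under 0.05, against 9.04% of all genes with an adjusted p, and Acp32CD was the exception.

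**Figure D1:**
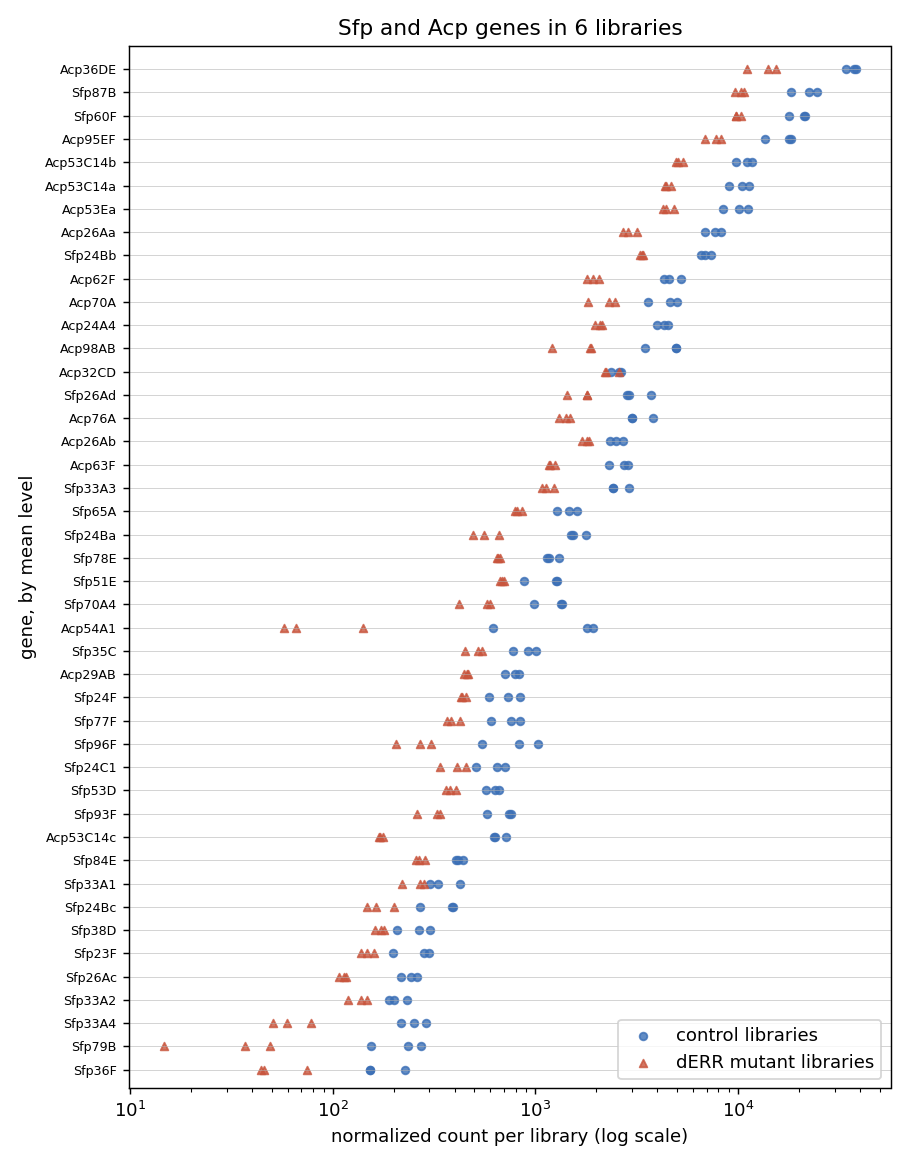
Normalized counts of the 44 Sfp and Acp genes in each of 6 libraries (log axis), with genes ordered by their mean; circles are control and triangles mutant libraries. Acp32CD is the gene whose groups overlap, and Acp54A1 has both the widest gap between the groups and a control library at 618 beside control libraries at 1796 and 1917.

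The summed level of the 44 genes showed how much of the male transcriptome they take. Control libraries gave them 1.30, 1.39 and 1.13% of all normalized counts, and mutant libraries 0.614, 0.605 and 0.620%. The mean was 1.27 ± 0.131% in control and 0.613 ± 0.00771% in mutant males (SD, n = 3 each). The mutant libraries lay close together, and the controls spread more, with control replicate 3 the lowest. In control replicate 3, 43 of the 44 genes were below their control mean on the log2 scale, with a median deviation of -0.18. Control replicate 2 was above that mean for all but 1 gene, by a median of 0.15. Genes at least as abundant as the least abundant of the 44 had a median deviation of 0.01 in control replicate 3 and -0.00 in control replicate 2. In whole flies, fewer cells of a type and less RNA per cell cannot be told apart. Total reads per library, estimated from the step between values, ran from 13987814 to 16102936, though the check of units did not accept such reads for 3 of the 6 libraries. The targeted gene ERR (dERR) changed from 470 ± 86.5 to 113 ± 6.01 normalized counts (SD, n = 3 each), 4.09-fold lower in the fit (adjusted p = 3.58e-06, limma).

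**Figure D2:**
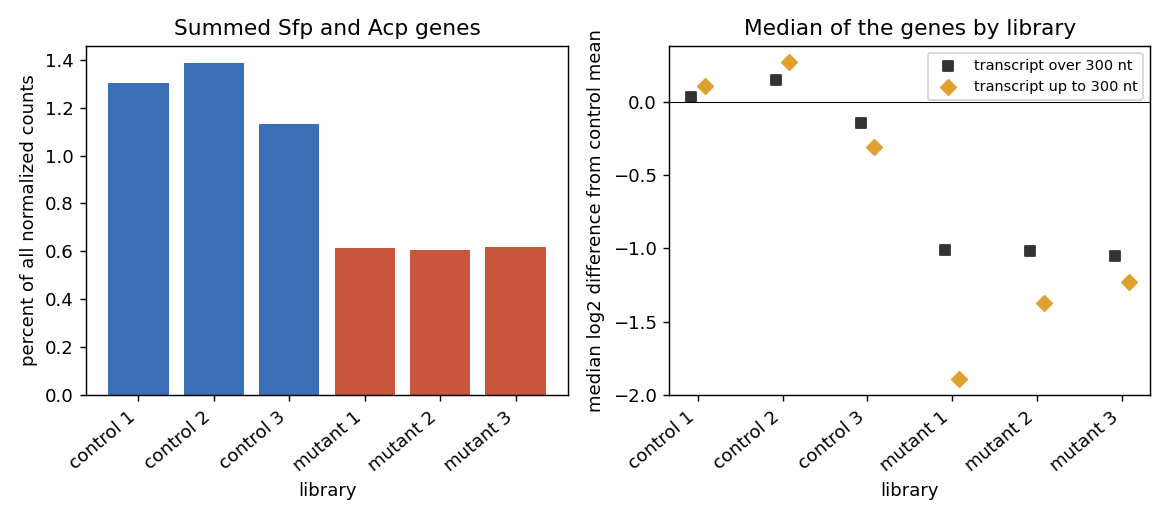
Left, the summed Sfp and Acp genes as percent of all normalized counts in each library. Right, the median log2 difference of these genes from their control mean in each library, with squares for transcripts over 300 nt (37 genes) and diamonds for transcripts up to 300 nt (6 genes). The squares of the mutant libraries lie between -1.05 and -1.01 and the diamonds between -1.89 and -1.23.

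Genes with a known action on the female were among those that fell. Acp70A (FBgn0003034; 3L, 13294735 to 13295022, dm3) encodes sex peptide, which raises egg laying and makes the female refuse further mating. It stood at 4622, 5007 and 3583 normalized counts in control and 1825, 2314 and 2462 in mutant libraries. All mutant values were below the lowest control, and on the log2 scale it changed by -0.998 ± 0.14 (SE; adjusted p = 5.24e-04, limma). Of the proteins that act with sex peptide in the female (background from other work), CG9997, Sems, CG30488 (antr) and CG14061 (aqrs) fell, with log2 changes of -0.46, -0.67, -0.49 and -0.60. The lectins lectin-46Ca and lectin-46Cb, CG17575 and CG12558 (intr) did not pass the test, with -0.08, -0.12, -0.11 and -0.27 on the same scale.

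Acp26Aa (FBgn0002855; 2L, 5892883 to 5893896, dm3) encodes ovulin, a prohormone-like protein that stimulates ovulation. Its control libraries held 7664, 8194 and 6891 normalized counts and its mutant libraries 3159, 2704 and 2855. The groups were far apart, and Acp26Aa changed by -1.38 ± 0.09 (log2, SE), with an adjusted p of 3.08e-06 (limma). Acp36DE (FBgn0011559; 2L, 18356125 to 18359026, dm3) encodes a large glycoprotein needed for sperm to be stored. It was the most abundant of the 44 by count, at 37302, 38171 and 34048 in control and 15343, 11016 and 14112 in mutant libraries, and it changed by -1.45 ± 0.12 (log2, SE; adjusted p = 1.99e-05, limma). Acp36DE alone made up 18.4 to 19.9% of the summed counts of the 44 genes in control and 13.1 to 17.3% in mutant libraries. Its transcript is also the longest of those with an annotated length, at 2923 nt.

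Protease inhibitors and a lectin fell too. Acp62F, a trypsin inhibitor (FBgn0020509; 3L, 2739750 to 2740228, dm3), had 4543, 5203 and 4334 normalized counts in control and 1799, 1914 and 2055 in mutant libraries. Its log2 change was -1.28 ± 0.09 (SE), or 2.44-fold lower. Acp76A, a serpin (a serine protease inhibitor; 3L, 19043857 to 19045126, dm3), stood at 2988, 3793 and 2997 in control and 1423, 1308 and 1474 in mutant libraries. These groups did not overlap either, and the change was -1.21 ± 0.10 (log2, SE). Acp29AB, a C-type lectin that helps the female keep stored sperm (2L, 8392456 to 8393222, dm3), had 790, 828 and 708 in control against 466, 444 and 460 in mutant libraries. Its change was smaller, at -0.76 ± 0.08 (log2, SE). All of these genes passed the test, with adjusted p-values of 4.30e-06 for Acp62F, 1.74e-05 for Acp76A and 1.03e-04 for Acp29AB (limma).

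Per kilobase of coding sequence, the 6 highest levels belonged to genes with coding lengths of 75 to 396 nt, beside a median of 297 nt. Acp95EF came first, with a mean over all 6 libraries of 77604 normalized counts per coding kilobase, followed by Sfp87B at 61379, Sfp60F at 61229 and Acp98AB at 40753. Acp53C14a and Acp53C14b came next at 20328 and 20170. The coding length came from a later annotation (BDGP6), and dividing by the gene span of the deposited coordinates gave the same 6 genes on top. Acp53C14a, Acp53C14b, Acp70A and Acp53Ea, which lie between 19996 and 20328 per coding kilobase, differed by less than the spread between libraries of either group. Their annotated transcripts are 705, 590, 223 and 468 nt, so dividing by transcript length would reorder them and change the leading 6. All of the leading 6 per coding kilobase fell, and for 5 of them the log2 change lay between -1.19 and -1.01, near the median of the 44. Sfp87B (3R, 8098848 to 8099243, dm3) had 24634, 22464 and 18300 normalized counts in control and 10745, 9606 and 10371 in mutant libraries, a change of -1.08 ± 0.11 on the log2 scale (SE), at an adjusted p of 6.93e-05 (limma). Sfp60F (2R, 21059768 to 21060218, dm3) had 21422, 21224 and 17870 in control and 9765, 10307 and 9786 in mutant libraries, a change of -1.01 ± 0.09. Acp95EF (3R, 20054697 to 20055001, dm3) had 17925, 18219 and 13541 in control and 6903, 7812 and 8236 in mutant libraries, a change of -1.11 ± 0.12. The control library that was lowest for each of these was replicate 3, and it still exceeded every mutant library. Acp98AB (3R, 23520605 to 23520773, dm3) had 4935, 4965 and 3488 in control and 1208, 1886 and 1856 in mutant libraries, a change of -1.45 ± 0.18 (log2, SE).

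The size of the fall hardly followed abundance. Among the 11 most abundant genes all 11 fell, by log2 values between -1.45 and -0.998 with a median of -1.11. In the next 11 the median was -1.05 (range -1.49 to -0.11), and in the 11 after those it was -0.83 (-3.97 to -0.62). In the least abundant 11 the median was -1.03 (-2.80 to -0.44). The ranges were thus wider in the less abundant groups, and the widest was that of the group with Acp54A1. Across the 44 genes the rank correlation of log2 change with log2 mean level was -0.11 and Pearson's r was 0.09, given as a description because the genes share their libraries. Acp genes had a median change of -1.13 (16 of 17 fell) and a median level of 3168 normalized counts, and Sfp genes a median change of -0.91 (26 of 27 fell) and a median level of 532. The counts of both name groups are far above the 9.47% of all genes, and the difference between the name groups was not tested.

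**Figure D3:**
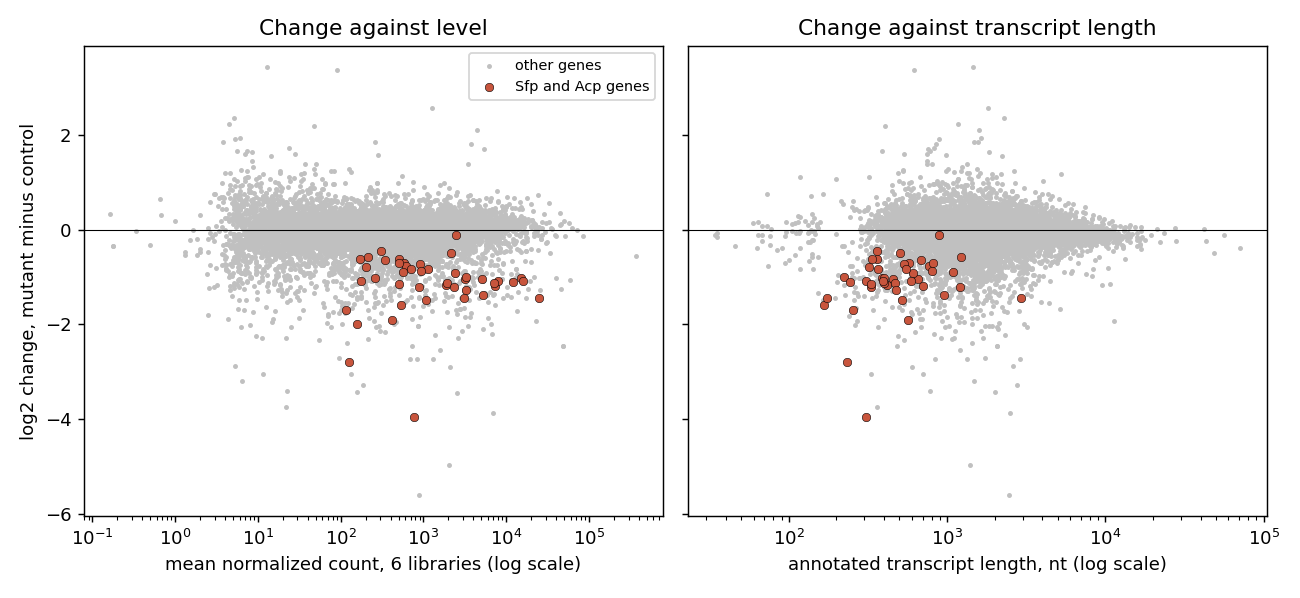
Log2 change (mutant minus control) of each gene against its mean normalized count (left) and against its annotated transcript length (right), both on log axes, with the Sfp and Acp genes in red and other genes in grey. The Sfp and Acp genes form a band below 0 at every level. Among these genes, log2 changes below -2.00 belong to Acp54A1, Sfp79B and Sfp33A4 (the last has no annotated length and is in the left panel only).

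The 5 largest falls in the limma fit were those of Acp54A1, Sfp79B, Sfp33A4, Acp53C14c and Sfp36F. Acp54A1 (FBgn0083936; 2R, 13020963 to 13021255, dm3) had 618, 1796 and 1917 normalized counts in control and 141, 65.6 and 57.7 in mutant libraries. Its log2 change was -3.97 ± 0.41 (SE), 15.7-fold lower (adjusted p = 7.79e-05, limma). Control replicate 1 stood well below the other controls (SD of the 3 controls 718) and was still above every mutant library. Without any single library the change of Acp54A1 ranged from -4.50 to -3.68. Sfp79B (3L, 22073422 to 22073654, dm3) had 234, 273 and 154 in control and 14.7, 36.8 and 48.8 in mutant libraries, with a change of -2.80 ± 0.36, which was -2.31 without mutant replicate 1. Sfp33A4 (2L, 11837243 to 11837486, dm3) had 251, 289 and 218 in control and 50.9, 59.7 and 77.6 in mutant libraries, with a change of -2.00 ± 0.16. Sfp36F (2L, 18292522 to 18292810, dm3) had 153, 227 and 152 in control and 44.0, 45.7 and 74.6 in mutant libraries, with a change of -1.69 ± 0.22 (log2, SE). Acp53C14c, whose library values are given with its cluster, changed by -1.92 ± 0.09 (log2, SE) and has a transcript of 564 nt. In all 5 genes the groups stayed apart. The SE was larger than the 0.07 to 0.12 of the 10 most abundant genes in Acp54A1, Sfp79B, Sfp33A4 and Sfp36F, and within that range in Acp53C14c. The adjusted p-values (limma) were 3.77e-04 for Sfp79B, 1.74e-05 for Sfp33A4 and 3.76e-04 for Sfp36F. With a robust prior they were 0.0259 for Acp54A1 and 0.0205 for Sfp79B (limma). Which genes are the 5, and their order, depend on whether fold changes are shrunken. The authors' deposited unshrunken log2 fold changes gave the same 5 in the same order, from -4.03 for Acp54A1 to -1.70 for Sfp36F. Their shrunken values were -1.52 for Acp54A1 and -1.40 for Sfp79B, and Sfp24Ba at -1.42 fell more than Sfp79B. The shrunken values of Acp53C14c and Sfp33A4 were larger falls, at -1.83 and -1.78.

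Transcripts up to 300 nt had a larger median fall than longer ones, and across the genes the relation with length was weak. Most of the 44 encode small products, with a median annotated transcript of 468 nt (range 168 to 2923) and a median coding length of 297 nt (75 to 2736) over the 43 genes with an entry in that annotation. The 6 genes with transcripts up to 300 nt had a median log2 change of -1.52, and the 37 longer ones -1.03, with 35 of 37 called lower. Among other genes with transcripts up to 300 nt, 21.2% of 118 fell and the median was -0.14. Of the 33 such genes that were at least as abundant as the least abundant Sfp or Acp gene, 16 fell (48.5%) and the median was -0.51. Only the 44 were left out of these other genes. Seminal genes with other names therefore remain among them, such as Mst57Db (log2 change -1.44). Other genes of the same abundance with transcripts over 300 and up to 500 nt had a median of 0.06 and 21.5% of 200 fell, against 16 of 17 Sfp and Acp genes of that length with a median of -1.08. The 6 short genes also varied more by library. Their median difference from the control mean was -1.89 in mutant replicate 1, -1.37 in replicate 2 and -1.23 in replicate 3, where the longer genes had -1.01, -1.02 and -1.05. The part of transcript length in the larger falls was not tested. Across 43 genes the rank correlation of log2 change with log2 length was 0.28, as a description.

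Neighbouring genes fell, as nearly all of the 44 did, but not by the same amount. With genes at most 20 kb apart counted as neighbours, 18 of the 44 formed 6 clusters, and all 18 fell. The median change was -1.09 in clusters and -0.96 among the 26 genes standing alone, of which 24 fell. By chromosome arm, 19 of 21 genes fell on 2L, 8 of 8 on 2R, 9 of 9 on 3L and 6 of 6 on 3R, and none of the 44 was on the X or the 4th chromosome.

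**Figure D4:**
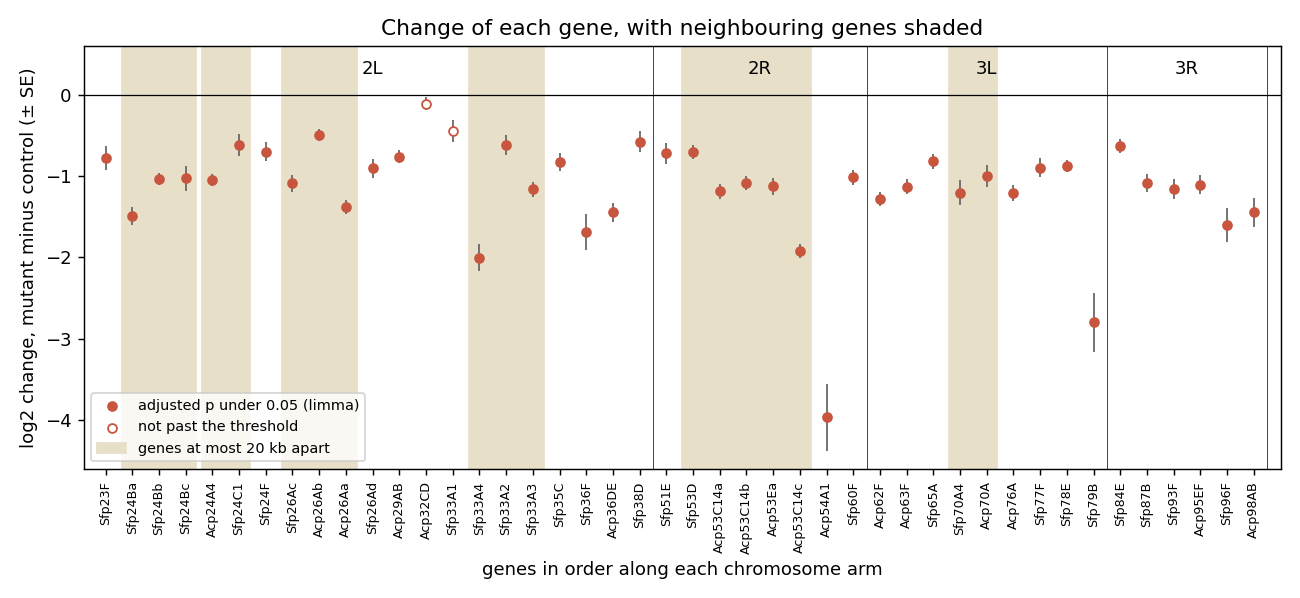
Log2 change with SE of each of the 44 genes, in order along the chromosome arms; filled points passed an adjusted p of 0.05 (limma), open points did not, and shading joins genes at most 20 kb apart. All genes in shaded clusters fell, and within the clusters of 3 or more the changes spread by 0.46 to 1.38 on the log2 scale.

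The largest cluster lies on 2R (12632055 to 12638974, dm3), where 5 genes on the same strand span 6920 bases. Acp53C14a, Acp53C14b and Acp53Ea are close relatives by name and position, and their levels were alike as well. Acp53C14a had 10462, 11336 and 9013 normalized counts in control and 4664, 4372 and 4427 in mutant libraries, a log2 change of -1.19 ± 0.09 (SE). Acp53C14b had 11050, 11711 and 9822 in control and 5361, 4939 and 5040 in mutant libraries, a change of -1.08 ± 0.08. Acp53Ea had 10063, 11149 and 8454 in control and 4844, 4278 and 4403 in mutant libraries, a change of -1.13 ± 0.10. These changes were within 2 SE of each other. Acp53C14c, at the end of the cluster, was far less abundant and fell more, from 633, 712 and 622 to 177, 169 and 171, a change of -1.92 ± 0.09 and the smallest adjusted p of the 44 (2.62e-07, limma). Sfp53D at the other end changed by -0.70 ± 0.09. Reads that fit more than 1 of the Acp53 genes could be split between them by the counting, whose method is not known here.

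On 2L, Acp26Ab (5892298 to 5892862, dm3) and Acp26Aa lie 20 bases apart on the same strand. Acp26Ab, which encodes a small secreted peptide, had 2496, 2698 and 2344 normalized counts in control and 1846, 1803 and 1690 in mutant libraries, and changed by -0.50 ± 0.08 (log2, SE), with an adjusted p of 1.17e-03 (limma). This was the smallest fall among those that passed, beside 1 of the larger ones. The log2 ratio of Acp26Aa to Acp26Ab was 1.62, 1.60 and 1.56 in control and 0.77, 0.58 and 0.76 in mutant libraries, so every mutant library lay below every control. Sfp26Ac, the third gene of this cluster, changed by -1.09 ± 0.11.

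Clusters of the Sfp names showed the same unevenness. At 24B on 2L (3667977 to 3670581, dm3), Sfp24Bb was the abundant gene with 7353, 6840 and 6537 normalized counts in control and 3412, 3299 and 3359 in mutant libraries, a log2 change of -1.04 ± 0.07 (SE). Sfp24Ba beside it had 1530, 1779 and 1491 in control and 664, 493 and 556 in mutant libraries, a change of -1.49 ± 0.11, and Sfp24Bc changed by -1.03 ± 0.16. Between Sfp24Ba and Sfp24Bb lies a gene listed as CG42463, named Sfp24Bd in the reference name table and so outside the name rule. It also fell, by -0.86 ± 0.13 (log2, SE). At 33A on 2L (11837243 to 11840329, dm3), Sfp33A4, Sfp33A2 and Sfp33A3 changed by -2.00 ± 0.16, -0.62 ± 0.12 and -1.16 ± 0.09 (log2, SE). Sfp33A2 held 200, 233 and 190 normalized counts in control and 119, 147 and 137 in mutant libraries, and Sfp33A3 2420, 2893 and 2403 against 1241, 1126 and 1074. The pair clusters were Sfp70A4 with Acp70A (-1.20 ± 0.15 and -0.998 ± 0.14) and Acp24A4 with Sfp24C1 (-1.05 ± 0.07 and -0.62 ± 0.14).

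Ratios between neighbours were compared in 4 pairs picked after their values were seen. Acp26Aa to Acp26Ab, Acp53C14c to Acp53C14b, Sfp33A4 to Sfp33A2 and Sfp24Ba to Sfp24Bb shifted by -0.89, -0.84, -1.40 and -0.45 in log2 ratio. The libraries of the groups did not overlap in any of the 4 ratios. An exact permutation test (two-sided) gave p = 0.1 for each, also after adjustment over the 4 pairs, which is the smallest that 3 libraries against 3 can give. Because the pairs were picked on these same libraries, and other neighbours were not tested, these p-values add no support for the shifts.

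The genes that did not pass differed from each other. Acp32CD (FBgn0023415; 2L, 11015642 to 11016571, dm3), an accessory gland protein of moderate abundance, had 2638, 2586 and 2370 normalized counts in control and 2209, 2592 and 2239 in mutant libraries. Its groups overlapped, and the log2 change was -0.11 ± 0.08 (SE; adjusted p = 0.441, limma). Over all settings tried its change stayed between -0.26 and -0.03. Sfp33A1 (2L, 11754085 to 11754502, dm3) had 330, 424 and 302 in control and 220, 283 and 269 in mutant libraries, with no overlap, a change of -0.44 ± 0.14 and an adjusted p of 0.0567 (limma). It passed without control replicate 3 (adjusted p = 0.0496, limma), and the authors' deposited table lists Sfp33A1 with an adjusted p of 0.0255.

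The remaining genes lay between -1.60 and -0.58 on the log2 scale. Acp63F and Sfp65A changed by -1.13 ± 0.09 and -0.82 ± 0.09 (log2, SE), from means of 2636 ± 300.1 and 1453 ± 166 to 1198 ± 47.7 and 819 ± 35.8 normalized counts (SD, n = 3 each). Sfp96F had 832, 1035 and 545 in control and 205, 269 and 305 in mutant libraries, a change of -1.60 ± 0.21. Sfp93F changed by -1.16 ± 0.13, and Sfp26Ad, Sfp77F, Sfp78E, Sfp35C, Sfp23F, Sfp51E, Sfp24F, Sfp84E and Sfp38D lay between -0.91 (Sfp26Ad) and -0.58 (Sfp38D) on the log2 scale. Each of these passed the test. Sfp38D and Sfp24C1 were close to the threshold (adjusted p = 0.0135 and 0.0101, limma). Without control replicate 1 both calls ended (adjusted p = 0.0631 and 0.0556, limma), and that of Sfp38D also ended without control replicate 2 (adjusted p = 0.0508, limma).

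Of the 44 genes, 15 overlap another listed gene in the deposited coordinates, and for 7 of them that gene has at least 20% of their level. Sfp33A2, Sfp33A3 and Sfp33A4 lie within the span of Pde1c (mean 1463 normalized counts), Acp63F in Scsalpha (3759) and Sfp24Bc in CG34340 (83.0), while Sfp78E and Sfp84E share an edge with CG11248 (717) and Os-C (545.0). In the later annotation Acp63F and Sfp24Bc share no exon with the surrounding gene, whereas exons of Sfp78E and Sfp84E meet those of a neighbour on the opposite strand. Whether the counting used strand is not known here, and values of these 7 genes are uncertain to that extent.

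Seminal genes with other names fell as well, in 21 of 27 measured (median log2 change -0.76), and 0 were higher in limma, at an unadjusted p under 0.05 or in the authors' deposited table. Among them were the serpin Spn2 (Spn28F, -1.59 ± 0.11), Mst57Db (-1.44 ± 0.11) and Dup99B (-1.32 ± 0.09), a peptide related to sex peptide, made in the ejaculatory duct and also counted in the next list. Their summed level was 191516 to 216468 normalized counts in control and 91693 to 102064 in mutant libraries. All 7 measured genes of the ejaculatory duct and bulb fell (median -1.14), with esterase Est-6 at -1.42 ± 0.10 and the bulb protein gene Peb at -1.07 ± 0.11. The share of all genes called lower was 9.47%.

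Transcription factors that act in the glands and genes of the secretory pathway were also examined, and neither list is specific to the glands. The transcription factors prd, dve and Abd-B, which act in the accessory gland and elsewhere, had log2 changes of -0.25 ± 0.10, -0.28 ± 0.13 and -0.03 ± 0.11 (SE). Of these, 0 of 3 passed in limma or in the authors' deposited table, and 1 had an unadjusted p under 0.05. In the secretory pathway list, 11 of 33 genes fell and 1 rose, with a median of -0.18, where 9.47% of all genes fell and 4.73% rose. The authors' deposited table has 13 of these genes lower and 1 higher. Spase22-23, called lower in limma at -0.33 ± 0.07 (log2, SE), shares exon sequence with Acp95EF on the opposite strand. Its value is uncertain to the extent that counting ignored strand. The signal peptidase subunit Spase25 changed by -0.50 ± 0.08 and the oligosaccharyltransferase subunit Ost48 by -0.33 ± 0.07, and Xbp1, a regulator of the unfolded protein response, rose by 0.34 ± 0.08. These genes are used by all secreting cells of the fly.

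Lists of other tissues gave values on both sides. Of 27 testis genes 0 passed in limma, with a median of 0.16, and 9 were higher at an unadjusted p under 0.05 (1 higher in the authors' deposited table). The share of all genes at that unadjusted threshold is not given here, so the 9 cannot be set against it. The summed level of the testis genes was 90264 to 105913 normalized counts in control and 106950 to 120230 in mutant libraries. In the muscle list 15 of 21 rose (median 0.43), where 4.73% of all genes rose. In the fat body list 6 of 8 fell (median -1.15), where 9.47% of all genes fell, with the lipophorin gene Rfabg at -1.93 ± 0.12. The sums for muscle were 252373 to 291505 in control and 303351 to 354929 in mutant libraries, and those for fat body 43191 to 49054 and 11709 to 16040. No measured gene of these lists was at 0 in all libraries, and their part in the falls of the Sfp and Acp genes was not tested.

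**Figure D5:**
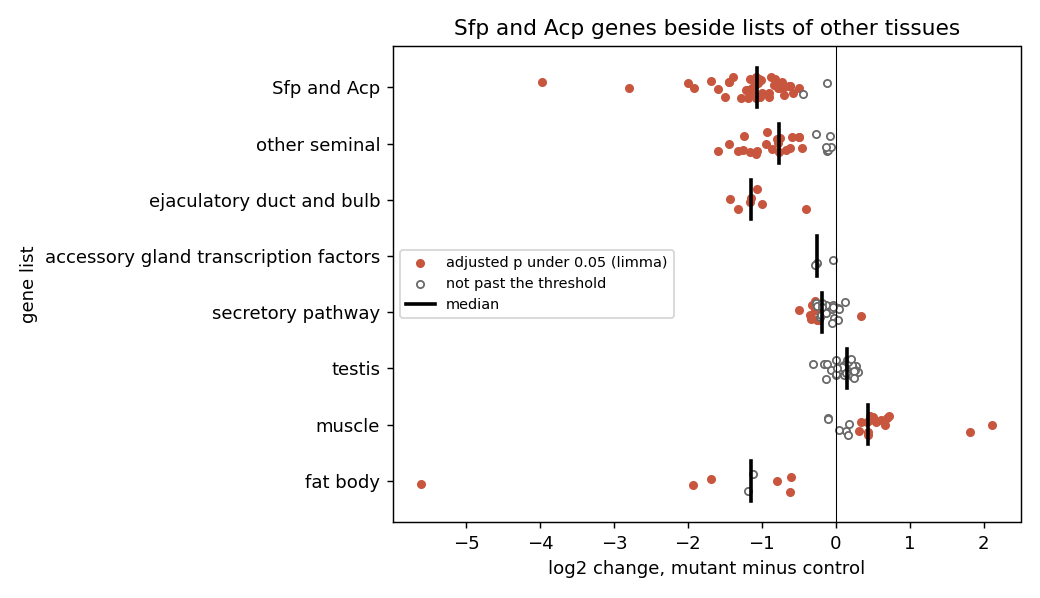
Log2 change (mutant minus control) of each gene in the Sfp and Acp group and in 7 lists of other seminal, tissue and secretion genes; filled points passed an adjusted p of 0.05 (limma), open points did not, and bars are medians. The Sfp and Acp median is -1.07, that of other seminal genes -0.76, of ejaculatory duct and bulb genes -1.14, and of testis genes 0.16.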

How the data were processed

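Whole male flies were profiled in 3 control and 3 mutant libraries. Per the labels' protocols, libraries were stranded and poly(A)-selected. The submitters' processing notes name Novoalign, DESeq2 and the build dm3, with no versions; how reads were counted is not stated in any source at hand. The authors deposited normalized counts, a signal that is whole multiples of a constant per library (tolerance 1e-06), beside their own log2 fold changes, a score (standard error and Wald statistic), p-values and adjusted p-values, per the file headers. The check of units did not accept recovered reads for 3 columns, so no count model was fitted.

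The fit was limma 3.58.1 (trended, R 4.3.3) on log2(normalized count + 1), group term only, no filter, Benjamini-Hochberg over 13035 genes, threshold 0.05. The pseudocount understates changes of weak genes. The method was tested on simulated data. Replicate numbers follow sample order, are names only and pair no libraries. Libraries are replicates by label only, so p-values set the group difference against the spread between these libraries. The fit draws each gene's variance toward a trend over all genes. Deposited starts appear to count from 0, and 1 was added: of 12526 genes with an ID in the BDGP6 annotation, 5709 then had the same width there, and 162 without it. That annotation, on another build, gave lengths, exons and strands for 43 of the 44 genes.

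The members and lists were chosen with earlier results of these data known. Library values (group means for Acp63F and Sfp65A) are given for the 6 highest genes per coding kilobase, the 5 largest falls, genes not called and genes of known role; other genes in clusters of 3 or more are given by their log2 change, and up to 3 genes per direction are named in other lists. Other genes are named as sex peptide partners, transcription factors or neighbours. Tables used Python 3.11.15, pandas 2.3.3, numpy 2.4.6 and scipy 1.17.1, figures matplotlib 3.10.9.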

Additional observations from a re-analysis of the deposited data

How the results depend on the processing

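The number of Sfp and Acp genes called lower was 40 to 43 of 44 under every setting run, and 0 were called higher in any. Those settings were pseudocounts of 0.5 and 5, a minimum mean of 10, 3 other scalings, an untrended and a robust prior and leaving out each library; 35 of 37 fell among transcripts over 300 nt, a restriction chosen after the data were seen. The median log2 change of the 44 was -0.98 with library size, -1.03 with the upper quartile, -1.22 with ribosomal protein scaling, -1.03 over transcripts over 300 nt, and -1.16 to -1.001 without 1 library. Ribosomal protein scaling, proposed with earlier results known, moved the median of all genes by about 0.15 (to -0.15), and the 44 lay -1.07 from it, as in the fit reported. Scaling divides each library by a constant and so shifts all genes nearly alike, which fixes this distance in advance. Sfp24C1 and Sfp38D lost their calls with the untrended prior (adjusted p = 0.0581 and 0.0513, limma), and Sfp33A1 gained one with the robust prior and ribosomal protein scaling.

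Over all genes, 1293 were higher with library size (43.4% of calls lower, against 66.7% in the fit reported and 58.3% with the upper quartile). Ribosomal protein scaling gave 1923 lower and 208 higher (90.2% lower), and the untrended prior 391 higher. Without 1 library the number higher ran from 330 to 563, lowest without control replicate 3, with 382 without mutant replicate 3; the number lower ran from 926 to 1139. Other seminal genes called lower numbered 21 to 23. Neighbour gaps of 5 and 50 kb gave 5 clusters each, with 15 and 19 genes. The median log2 change in clusters was -1.13 at 5 kb and -1.08 at 50 kb, and that of genes standing alone was -1.01 at both. Leaving out cuticle genes of the Acp prefix had no effect to compute, as none met the rule. No paired analysis was possible because the labels give no replicate numbers or pairing.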
